A study of Mus musculus with 4 samples.

Results

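*Gabra2*, *Gabra3*, *Gabra4* and *Gabra5* (alpha class), *Gabrb1* and *Gabrb2* (beta class) and *Gabrg3* (gamma class) encode subunits of the GABA-A receptor. They were selected by gene name, with no threshold on a measured value, although earlier results of these data were known, and are 7 of the 56883 genes in the deposited table. GABA-A receptors are pentameric chloride channels opened by GABA, most often built from alpha and beta subunits together with a gamma or delta subunit. The alpha subunit strongly influences the sensitivity to GABA, the pharmacology and the place of the receptor on the neuron, and alpha2, alpha3 and alpha5 are known as subunits of immature forebrain neurons. In migrating cortical interneurons intracellular chloride is high, so that GABA depolarizes the cells, and GABA signaling is known to influence their motility.

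The RNA came from tdTomato-positive cells sorted from the basal telencephalon of mouse embryos at stage E14.5. Control cells had the genotype *Sst-Cre/tdTomato*, and *Dnmt1* KO cells the genotype *Sst-Cre/tdTomato/Dnmt1 loxP2*, in which the gene for the DNA methyltransferase DNMT1 is floxed. Cre, expressed under control of the somatostatin locus, and the Cre-dependent reporter tdTomato were carried by both groups, and the knockout begins only in cells that have already switched on *Sst*. There were 2 libraries per genotype. The authors state that the 2 samples of a genotype were processed separately, each with cells of several embryos. They also state that cells were pooled per genotype for RNA isolation. Neither they nor the labels say that the libraries of a genotype came from separate embryos. The p-values therefore measure only the spread between these libraries, which may be technical.

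The libraries held 6970247 to 8376711 reads. Sequencing depth was similar between genotypes, and no library stood apart in the share of its 10 most abundant genes (16.8% to 17.8%). The share of mitochondrial genes was lower in *Dnmt1* KO (6.25% and 5.87%) than in control libraries (7.03% and 6.84%), and its part in the values was not tested. The normalized count of *Dnmt1*, the targeted gene, was 2238 and 2341 in control and 2164 and 2210 in *Dnmt1* KO libraries (log2 fold change -0.07 ± 0.05 (SE), adjusted p = 0.461), a count over the whole gene that does not separate floxed from other exons. *Sst*, the gene that defines the sorted cells, was 5580 and 5963 in control and rose to 8303 and 7825 in *Dnmt1* KO libraries (adjusted p = 4.87e-06). Of 18 markers of medial ganglionic eminence (MGE)-derived interneurons, 16 were called higher (limma, adjusted p below 0.05), beside 8.30% of all genes tested. Their summed normalized count went from 25634 to 25930 in control to 39685 to 39941 in *Dnmt1* KO libraries. Markers of other cells were called lower in most cases, beside 8.99% of all genes tested. This applied to 8 of 12 genes of radial glia and progenitors (summed 14755 to 14883 in control and 9334 to 9538 in *Dnmt1* KO, with 1 gene higher), 7 of 9 of the excitatory lineage (2878 to 3035 and 1579 to 1710), 5 of 8 tested of striatal neurons (6576 to 6578 and 6722 to 6899, with 1 gene higher), all 6 tested of blood (2231 to 2411 and 560 to 568) and 9 of 11 tested of vascular, microglial and fibroblast cells (736 to 791 and 332 to 370). Of the 2 cholinergic markers tested neither passed. One of them, *Lhx8*, had 251 and 272 in control and 213 and 204 in *Dnmt1* KO libraries (log2 fold change -0.32, adjusted p = 0.0786). *Chat*, from the same list, was at 1.97 or less in every library and was not tested. The part of these other cells in the values of the subunit genes was not tested, and in sorted bulk RNA fewer cells of a type and less RNA per cell cannot be told apart.

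In the *Dnmt1* KO libraries *Gabra2* was higher, and the other 6 subunit genes did not pass the test. Genotypes were compared with limma on log2(normalized count + 1) for the 14323 genes whose normalized count averaged 10 or more over the 4 libraries. Calls were made below an adjusted p of 0.05 (Benjamini-Hochberg). All 7 subunit genes reached that mean. With 1 gene called higher and 0 called lower, the subunit genes lay close to all genes tested, of which 17.3% were called, 8.30% higher and 8.99% lower. Before adjustment, 5 of 7 had p below 0.05, against 30.2% of all genes tested. The values of the genotypes did not overlap for 5 of 7, which held for 57.4% of all genes tested. Of these 5, 4 were higher (28.4% of all genes tested) and 1 was lower (29.0%). The median log2 fold change of the 7 was 0.30, beside -0.0033 for all genes tested.

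**Figure D1:**
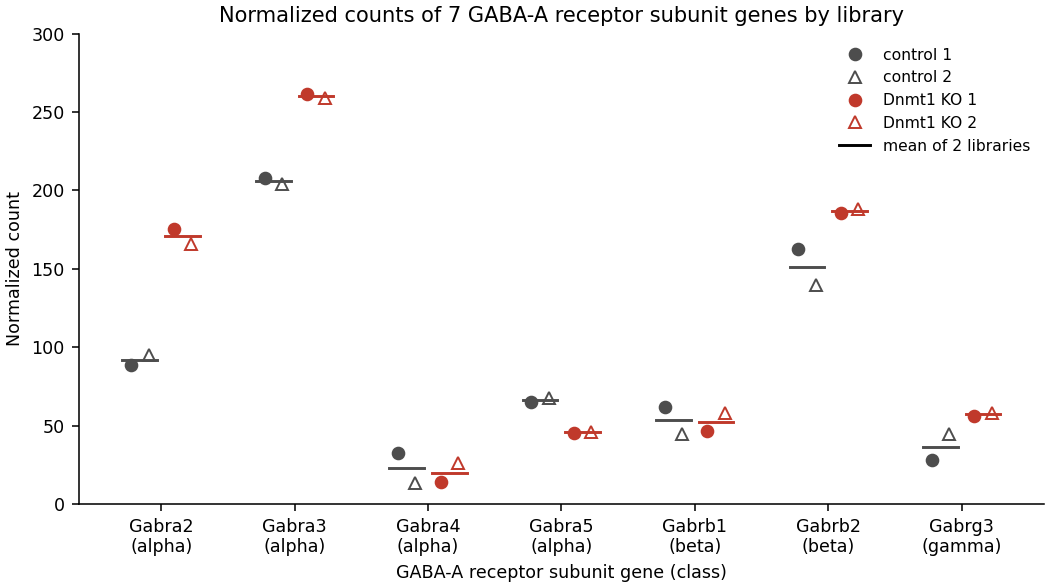
Normalized count (vertical axis, linear, from 0) of each of the 7 subunit genes (horizontal axis, with the class in parentheses) in the 2 control (grey) and 2 Dnmt1 KO (red) libraries, with circles for library 1, triangles for library 2 and bars for the mean of 2 libraries. The Gabra2 values sit at 88.6 and 94.9 in control and at 176 and 166 in Dnmt1 KO libraries, whereas those of Gabra4 and Gabrb1 are mixed between genotypes.

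*Gabra2* encodes alpha2, a subunit found at many inhibitory synapses of the forebrain. Control libraries held 88.6 and 94.9 normalized counts of it, and *Dnmt1* KO libraries 176 and 166. Both *Dnmt1* KO values lay far above both control values, by much more than the spread within a genotype. The mean rose from 91.8 ± 4.49 to 171 ± 6.72 (SD, n = 2 each), that is 1.86-fold. The log2 fold change was 0.89 ± 0.16 (SE), with a 95% interval of 0.55 to 1.23 and an adjusted p of 0.0011. The Wald test of DESeq2 on the recovered reads also called *Gabra2* (adjusted p = 0.0061) and none of the other 6, with 9.26% of all genes tested called. The call was lost when limma was run without a trend of variance over expression (adjusted p = 0.0616), a setting that called 0 of 14323 genes, although 3339 had an unadjusted p below 0.05. *Gabra2* lies at chr5:71114573-71253662 on the minus strand (GRCm39) and has 11 exons in the transcript with the longest coding sequence. Of its exon bases, 3.39% (304 of 8967) are also exon of a lncRNA gene on the opposite strand. Exon bases of *Gabra4*, *Gabra5*, *Gabrb1* and *Gabrg3* are likewise shared with the opposite strand, and since no source used here states whether reads were assigned by strand, the values of these 5 genes, *Gabra2* included, are uncertain to that extent.

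*Gabra3* encodes alpha3, the prevalent alpha subunit of many embryonic neurons, and was the most abundant alpha gene in every library. Normalized counts were 208 and 204 in control and 261 and 259 in *Dnmt1* KO libraries. The *Dnmt1* KO values were higher without overlap, with a spread of only 2.43 (SD, control) and 1.73 (SD, *Dnmt1* KO) around means of 206 and 260. The difference was small in size, with a log2 fold change of 0.34 ± 0.12 (SE) and a 95% interval of 0.09 to 0.59. It did not pass after adjustment (adjusted p = 0.0622). *Gabra3* lies on the X chromosome at chrX:71476275-71700723, minus strand.

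*Gabra5* encodes alpha5, a subunit known mainly from receptors outside synapses. It was the subunit gene of the 7 with the lowest fold change. The normalized counts were 65.3 and 67.4 in control and 45.4 and 45.9 in *Dnmt1* KO libraries. The values were lower in both *Dnmt1* KO libraries, with means of 66.4 ± 1.45 and 45.6 ± 0.365 (SD, n = 2 each). The log2 fold change of -0.53 ± 0.23 (SE; 95% interval -1.03 to -0.04) did not pass after adjustment (adjusted p = 0.136). *Gabra5* lies at chr7:57055164-57240831 on the minus strand.

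*Gabra4* encodes alpha4, a subunit of receptors with a delta subunit that becomes more prominent after birth. It had the lowest mean normalized count of the 7, not divided by length, with 36 and 13 reads in control and 14 and 24 in *Dnmt1* KO libraries. On the normalized scale these were 32.2, 13.3, 13.8 and 26.2. The spread within a genotype exceeded the difference between genotypes (22.7 ± 13.4 against 20.0 ± 8.78, SD, n = 2 each). With a log2 fold change of -0.12 and a 95% interval of -1.11 to 0.88 (adjusted p = 0.902), changes of either sign within that interval were not detectable at this depth. The direction turned without *Dnmt1* KO library 1 (0.32) and without control library 1 (0.49).

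Within the alpha reads, *Gabra2* took a larger and *Gabra5* a smaller share in the *Dnmt1* KO libraries. As a share of the reads of the 4 alpha genes, *Gabra2* had 22.5% (95% exact binomial interval 18.7 to 26.7, 99 of 440 reads) and 25.0% (20.7 to 29.7, 93 of 372) in control libraries. In *Dnmt1* KO libraries it had 35.4% (31.2 to 39.7, 178 of 503) and 33.4% (29.1 to 37.9, 152 of 455). The share of *Gabra5* was 16.6% and 17.7% in control and 9.15% and 9.23% in *Dnmt1* KO libraries. Within a library these shares do not depend on the scaling between libraries, and for both genes the values of the genotypes did not overlap. *Gabra3* held 52.7% and 53.8% in control and 52.7% and 52.1% in *Dnmt1* KO libraries. *Gabra2* had 1.36 and 1.41 counts per count of *Gabra5* in control and 3.87 and 3.62 in *Dnmt1* KO libraries. The binomial intervals cover counting error only, since reads made by PCR are not independent molecules.

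**Figure D2:**
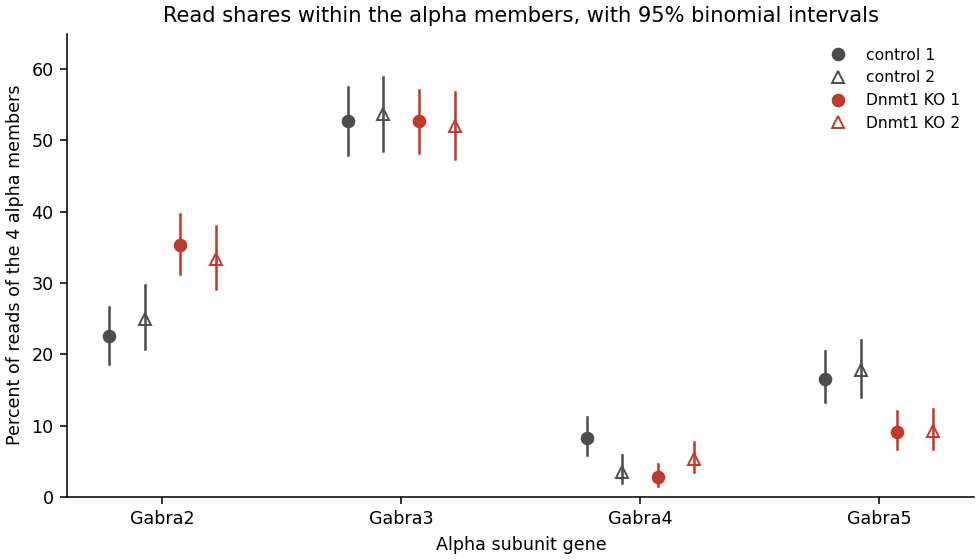
Percent of the reads of the 4 alpha subunit genes (vertical axis) that fell on each gene (horizontal axis) in the control (grey) and Dnmt1 KO (red) libraries, with circles for library 1, triangles for library 2 and vertical lines for 95% exact binomial intervals. Gabra2 takes 22.5% and 25.0% in control and 35.4% and 33.4% in Dnmt1 KO libraries, while Gabra5 takes 16.6% and 17.7% and then 9.15% and 9.23%.

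*Gabrb2* encodes beta2, a main beta subunit of mature forebrain receptors. Its normalized count was 163 and 140 in control and 185 and 188 in *Dnmt1* KO libraries. The *Dnmt1* KO values were both above the controls, although the controls differed from each other by about as much as control 1 did from the *Dnmt1* KO libraries. The mean went from 151 ± 16.3 to 187 ± 1.76 (SD, n = 2 each). The log2 fold change was 0.30 ± 0.14 (SE; 95% interval 0.0035 to 0.61) and did not pass after adjustment (adjusted p = 0.161). *Gabrb2* lies at chr11:42310493-42523417 on the plus strand.

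*Gabrb1* encodes beta1, which in the adult brain is less widespread than beta2. The normalized count was 61.7 and 44.9 in control and 46.4 and 57.9 in *Dnmt1* KO libraries. The values of the genotypes overlapped fully, with means of 53.3 ± 11.9 and 52.1 ± 8.17 (SD, n = 2 each). The log2 fold change of -0.02 had a 95% interval of -0.57 to 0.53 (adjusted p = 0.969), and its sign turned under quantile normalization (0.09), without control library 1 (0.20) and without *Dnmt1* KO library 1 (0.13). *Gabrb1* (chr5:71815456-72319431, plus strand) and *Gabra4* (chr5:71721738-71815722, minus strand) start head to head with 267 bp of overlap, 101 of them exonic in both.

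*Gabrg3* encodes gamma3, a gamma subunit of low abundance in most brain regions. Reads numbered 31 and 44 in control and 57 and 53 in *Dnmt1* KO libraries. Normalized counts were 27.7 and 44.9 in control and 56.2 and 57.9 in *Dnmt1* KO libraries. Both *Dnmt1* KO values were above both controls, yet the controls themselves were far apart (36.3 ± 12.1 against 57.1 ± 1.19, SD, n = 2 each). The log2 fold change of 0.68 ± 0.28 (SE; 95% interval 0.07 to 1.28) did not pass after adjustment (adjusted p = 0.120). Its size rested on the controls, with 0.34 without control library 1 and 1.01 without control library 2. *Gabrg3* lies at chr7:56366213-57036936 on the minus strand, 18.2 kb from *Gabra5*.

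By class, the 4 alpha genes summed to 394 and 380 normalized counts in control and 496 and 497 in *Dnmt1* KO libraries. The 2 beta genes summed to 225 and 185 in control and 232 and 246 in *Dnmt1* KO libraries. All 7 together had 646 and 609 in control and 784 and 801 in *Dnmt1* KO libraries. The sums were higher in each *Dnmt1* KO library than in each control library for all 3 groupings. The fold over control was 1.28 ± 0.0328 for the alpha and 1.17 ± 0.168 for the beta genes (SD carried over from 2 libraries per genotype). These sums add up genes of different length and are dominated by *Gabra3* and *Gabrb2*.

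Compared per kb of the transcript with the longest coding sequence, *Gabrb2* was the highest of the 7 in control libraries (98.4 ± 10.6 normalized counts per kb) and *Gabra3* the next (52.0 ± 0.613). *Gabra5* (16.6 ± 0.363) and *Gabra2* (14.2 ± 0.695) followed. *Gabra4* (5.30 ± 3.12), *Gabrb1* (3.88 ± 0.865) and *Gabrg3* (3.72 ± 1.24) did not differ from each other beyond their spread (SD, n = 2 each). In *Dnmt1* KO libraries *Gabra2* stood at 26.4 ± 1.04 per kb and *Gabra5* at 11.4 ± 0.0912, in the opposite order. With the longest transcript of each gene, however, the pair stood at 14.2 and 13.6 per kb in control libraries already. The order of levels depended on the transcript used. The *Gabrb2* transcript taken is 1539 bp long and the longest one 7783 bp, which would place it at 19.4 ± 2.09 per kb, below *Gabra3*, and *Gabrb1* went to 17.2 ± 3.83 per kb with the median length over its transcripts (3110 bp in place of 13763 bp). *Gabra3* was above *Gabra2*, *Gabra4* and *Gabra5* per kb with each of the 3 lengths.

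**Figure D3:**
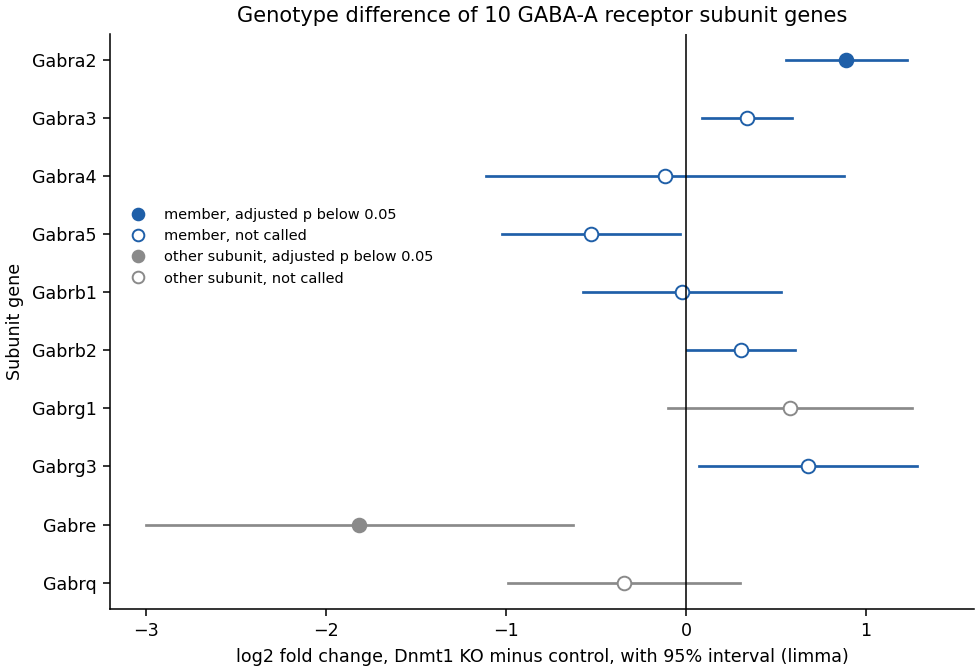
Log2 fold change, Dnmt1 KO minus control (horizontal axis), with its 95% interval from limma (lines), for 10 GABA-A receptor subunit genes (vertical axis), in blue for the 7 genes described here and in grey for Gabrg1, Gabre and Gabrq, with filled points at an adjusted p below 0.05. Gabra2 (0.89) and Gabre (-1.82) are the filled points, and the wide intervals of Gabra4 and Gabre go with low counts.

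The log2 fold change of *Gabra2*, the highest of the 7, was set against that of the other subunit genes. All differences are positive by that choice, and the intervals make no allowance for it. The log2 fold change of *Gabra2* exceeded that of *Gabra5* by 1.42 (95% interval 0.82 to 2.02), that of *Gabra3* by 0.55 (0.13 to 0.97), that of *Gabrb1* by 0.91 (0.27 to 1.56) and that of *Gabrb2* by 0.58 (0.13 to 1.04). The intervals against *Gabra4* (-0.04 to 2.06) and *Gabrg3* (-0.48 to 0.91) included 0. They treat the estimates of different genes as independent and are not adjusted for the number of differences. The same was done with some of the 18 interneuron markers, chosen with their values known, since most of these were called higher as well. The 18 had a median log2 fold change of 0.60, from -0.03 (*Nkx2-1*) to 1.12 (*Maf*). The outcome therefore depends on the marker taken. *Gabra2* exceeded *Sst* by 0.41 (0.06 to 0.76), whereas the intervals included 0 against *Lhx6*, a transcription factor of MGE-derived interneurons (-0.19 to 0.52), *Slc32a1*, the vesicular GABA transporter (-0.11 to 0.61), and the GABA-synthesizing enzymes *Gad1* (-0.10 to 0.62) and *Gad2* (-0.0029 to 0.71).

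Counted relative to the summed normalized count of the 18 interneuron markers, the subunit genes differed in direction. This sum itself was higher in *Dnmt1* KO (39685 and 39941) than in control libraries (25634 and 25930), with 16 of the 18 called higher. A gene that rose less than the sum is therefore lower on this scale by construction. Whether the sum measures the number of interneurons or their RNA per cell was not tested. *Gabra2* had 3.46 and 3.66 counts per 1000 marker counts in control and 4.42 and 4.16 in *Dnmt1* KO libraries, which was 1.21-fold higher without overlap. *Gabra3* had 8.10 and 7.87 in control and 6.59 and 6.48 in *Dnmt1* KO libraries. *Gabrb2* had 6.35 and 5.39 in control and 4.67 and 4.71 in *Dnmt1* KO libraries. Both rose less than the marker sum, and were therefore lower on this scale and higher on that of the size factors. *Gabra5* had 2.55 and 2.60 in control and 1.14 and 1.15 in *Dnmt1* KO libraries, lower on both scales. *Gabrb1*, whose normalized counts overlapped, had 2.41 and 1.73 in control and 1.17 and 1.45 in *Dnmt1* KO libraries, lower without overlap on this scale. The values of *Gabra4* (1.26 and 0.512 in control, 0.348 and 0.657 in *Dnmt1* KO) and *Gabrg3* (1.08 and 1.73, then 1.42 and 1.45) overlapped. This scale was added after the data were seen and carries no test.

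Transcript and gene length moved with genotype. For each doubling of transcript length the log2 values were higher by 0.0537 to 0.0560 in a *Dnmt1* KO library than in a control library, compared with 0.00172 and 0.000639 between libraries of the same genotype. All 7 subunit genes are long, spanning 94.0 kb (*Gabra4*) to 671 kb (*Gabrg3*) of the genome. They belong to the 2456 protein-coding genes tested with the longest spans (87.4 to 2962 kb), of which 18.2% were called higher and 9.49% lower, with a median log2 fold change of 0.06. Among the 2456 with the shortest spans the median was -0.10, and 2.85% were called higher. With the dependence of each library on length and GC content of the transcripts taken out, *Gabra2* had a log2 fold change of 0.75 (adjusted p = 0.0036), that of *Gabra3* 0.29, that of *Gabra5* -0.43, that of *Gabrb1* -0.23 and that of *Gabrb2* 0.41. The transcript with the longest coding sequence was taken, which for *Gabrb2* has 1539 bp while its longest transcript has 7783 bp. Removal of the trend with another length was not tested.

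**Figure D4:**
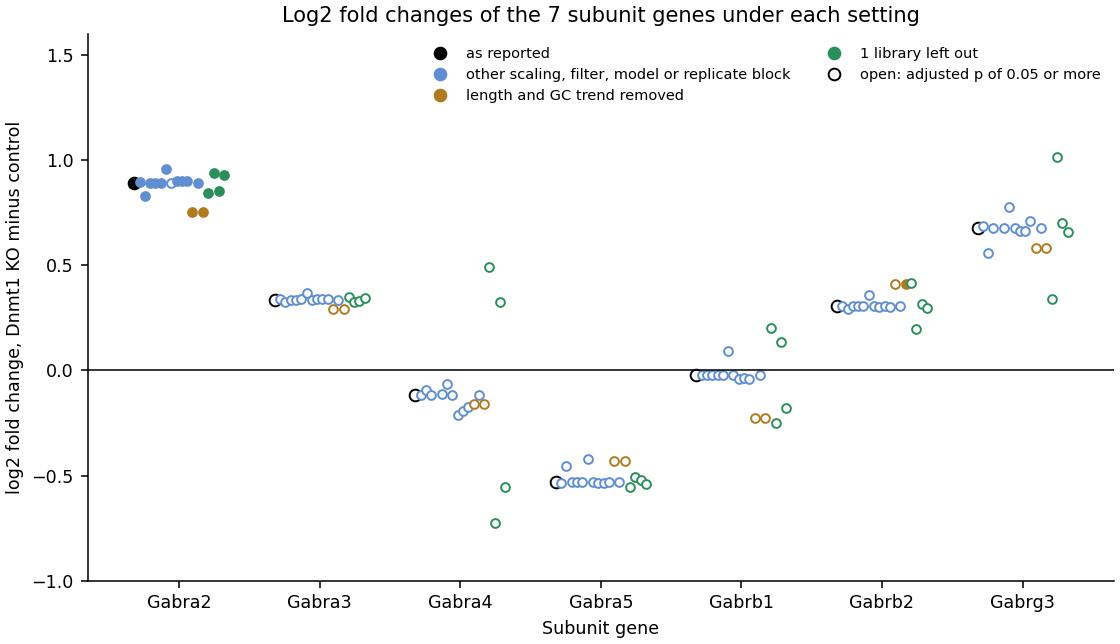
Log2 fold change, Dnmt1 KO minus control (vertical axis), of each of the 7 subunit genes (horizontal axis) as reported (black), with another scaling, filter, model or a replicate block (blue), with the trend over transcript length and GC content removed (brown) and with 1 library left out (green), open where the adjusted p was 0.05 or more. Gabra2 stays between 0.75 and 0.96, while the points of Gabra4 and Gabrb1 lie on both sides of 0.

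Given that DNMT1 methylates cytosines in CpG dinucleotides, the start regions of the subunit genes were read for CG. The RefSeq windows of 300 bases (250 before to 50 after a start, GRCm38.p6) were read for 6 of the 7 genes, and that of *Gabra2* was not used here. Both windows of *Gabra3* have 0 CpG. The windows of *Gabra5* (log2 fold change -0.53) and *Gabrg3* (0.68) each have 13, a number reached or exceeded by 37.9% of the 32851 windows of this length, and that of *Gabra4* has 12. The windows of *Gabrb1* have 25 (18.4% of windows have as many or more) and 9, and those of *Gabrb2* 11, 9 and 9. The median over all windows is 7. The 30 bases just before the start are shown for the alpha gene without CpG and for the alpha gene with lower values, 5′ to 3′ on the strand of the gene and with CG in capitals.
*Gabra3*, chrX:72656920-72656949: agcctgagctgacagctttgaattggatcc
*Gabra5*, chr7:57510060-57510089: ttgatgagagtctggCGgcctctacCGggc
DNA methylation was not analysed here.

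Subunit genes stand in clusters, and the values of neighbors are set side by side here. On chromosome 5 the order is *Gabrg1*, *Gabra2*, *Gabra4* and *Gabrb1*. *Gabra2* was called, its neighbor *Gabrg1* at a distance of 115 kb had a log2 fold change of 0.58 (adjusted p = 0.244), and *Gabra4* and *Gabrb1* had values near 0. On chromosome 7 *Gabrg3* (0.68) and *Gabra5* (-0.53) had opposite signs. On the X chromosome *Gabra3* (0.34) lies between *Gabre* (-1.82) and *Gabrq* (-0.35). Of these log2 fold changes those of *Gabra2* and *Gabre* passed the test.

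Values of further subunit genes are given for comparison, among them *Gabrg1*, *Gabrq* and *Gabre*, which encode gamma1, theta and epsilon. *Gabrg1* had 24.2 and 22.5 normalized counts in control and 35.5 and 35.0 in *Dnmt1* KO libraries, without overlap, and did not pass (0.58, adjusted p = 0.244). *Gabrq* had 41.2 and 33.7 in control and 28.6 and 29.5 in *Dnmt1* KO libraries (-0.35, adjusted p = 0.486). *Gabre* fell, from 17.0 and 19.4 to 5.92 and 3.28 normalized counts. It had 19 reads in each control and 6 and 3 reads in the *Dnmt1* KO libraries, its log2 fold change was -1.82 ± 0.56 (SE, adjusted p = 0.0351), and the adjusted p was 0.107 without control library 1, 0.158 without control library 2, 0.103 without *Dnmt1* KO library 2, 0.0611 under quantile normalization and 0.0748 without a variance trend, while DESeq2 gave no adjusted p. *Gabra6*, *Gabrd*, *Gabrp*, *Gabrr1*, *Gabrr2* and *Gabrr3* did not reach the mean count for testing. *Gabrd* had 1 read in a *Dnmt1* KO library and 0 in the others, and *Gabrp* and *Gabrr3* had 0 in all 4.

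Among 23 genes for anchoring, assembly and trafficking of GABA-A receptors, 5 rose, 2 fell and 16 did not pass, beside 8.30% higher and 8.99% lower among all genes tested. The median log2 fold change was 0.11. *Nlgn2*, a postsynaptic adhesion protein of inhibitory synapses, rose from 1555 and 1537 to 1872 and 1913 normalized counts (0.29 ± 0.06 (SE), adjusted p = 0.0024). *Iqsec3* (0.50, adjusted p = 0.0021), which binds the scaffold gephyrin, *Slitrk3* (0.61, 0.0129), an adhesion protein of inhibitory synapses, *Shisa7* (0.28, 0.0166), a GABA-A receptor auxiliary subunit, and *Plcl2* (0.32, 0.0297) rose as well. *Mdga1*, which binds neuroligin-2 and is known to restrain its contact with neurexin, fell from 514 and 442 to 225 and 247 normalized counts (-1.01 ± 0.11 (SE), adjusted p = 1.51e-05). *Hap1*, which takes part in the transport of receptors to the surface, fell from 1363 and 1449 to 1046 and 917 (-0.52, adjusted p = 0.000174). *Rdx*, the most abundant gene of the list that did not pass, encodes radixin, an anchor of alpha5-containing receptors (-0.03, adjusted p = 0.772). Leaving out a library ended some of these calls. *Shisa7* was lost without control library 2 (adjusted p = 0.0839) or *Dnmt1* KO library 2 (0.0920), *Plcl2* without control library 1 (0.0634), control library 2 (0.128) or *Dnmt1* KO library 1 (0.216), and *Slitrk3* without control library 1 (log2 fold change 0.36, adjusted p = 0.139). All 3 were also lost with DESeq2 (0.0799, 0.145 and 0.0502).

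Genes for making GABA and loading it into vesicles were higher. Of 6 genes of GABA synthesis, release and uptake, 3 rose and 0 fell, where 8.30% of all genes tested were called higher. *Gad1* went from 1177 and 1144 to 1820 and 1761 normalized counts (log2 fold change 0.63), *Gad2* from 1440 and 1402 to 2000 and 2116 (0.53) and *Slc32a1* from 1057 and 1091 to 1713 and 1629 (0.64). *Abat*, the GABA-degrading transaminase, did not pass (0.05, adjusted p = 0.727). *Gad1*, *Gad2* and *Slc32a1* are also among the interneuron markers given above. Of 5 genes tested for GABA-B receptors, the metabotropic GABA receptors, 2 rose (8.30% of all genes tested). These were the subunit *Gabbr1* (0.28 ± 0.06 (SE), adjusted p = 0.0034) and the auxiliary subunit *Kctd12* (0.46 ± 0.08 (SE), adjusted p = 0.0011), and *Gabbr2* had 0.33 (adjusted p = 0.110), which passed with the length and GC trend removed (0.41, adjusted p = 0.0429; 0.0209 with the replicate block added). Of the glycine receptor genes, 2 of 5 were tested and neither passed (*Glra2* 0.32, adjusted p = 0.136).

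For the chloride gradient, on which the sign of the GABA response depends, 1 of 9 genes fell and 0 rose, close to the 8.99% of all genes tested that were called lower. The fallen gene was *Stk39*, a kinase that activates the chloride importer, with 310 and 291 in control and 207 and 235 normalized counts in *Dnmt1* KO libraries (-0.44 ± 0.12 (SE), adjusted p = 0.0168). This call was lost without control library 1, control library 2 or *Dnmt1* KO library 1 (adjusted p = 0.105, 0.0512 and 0.101) and with DESeq2 (0.112). The importer *Slc12a2* had 320 and 391 in control and 310 and 315 in *Dnmt1* KO libraries, and the exporter *Slc12a5* had 409 and 516 in control and 439 and 482 in *Dnmt1* KO libraries. Neither passed (adjusted p = 0.313 and 0.993). *Wnk2*, the most abundant of the list, had a log2 fold change of 0.14 (adjusted p = 0.0637), and 6 of 17 other settings called it higher. The adjusted p was 0.0494 with a minimum mean of 50, 0.0344 with limma-voom, 0.0222 with the replicate block, 0.0066 with the length and GC trend removed, 0.000427 with both and 0.0079 without control library 1 (log2 fold change 0.22).

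**Figure D5:**
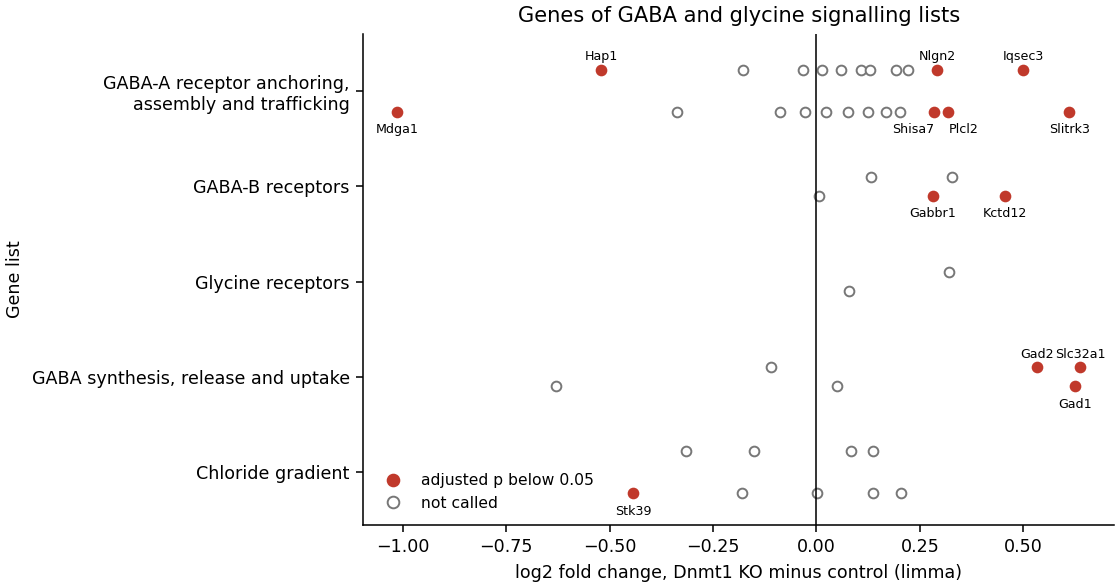
Log2 fold change, Dnmt1 KO minus control (horizontal axis), of the genes tested in 5 lists of GABA and glycine signaling (vertical axis), with filled red points and names at an adjusted p below 0.05 and open grey points otherwise. Gad1, Gad2 and Slc32a1 lie between 0.53 and 0.64, and Mdga1 at -1.01 is the gene farthest to the left.

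The profiles most like that of *Gabra2* over the 4 libraries, among 8144 protein-coding genes averaging 100 normalized counts or more, were those of *Dlgap2* and *Nrxn3*. Likeness was the Euclidean distance between log2 values centred on each gene's mean. *Dlgap2*, which encodes a protein of the postsynaptic density, lay at a distance of 0.05 with 489 and 498 normalized counts in control and 927 and 892 in *Dnmt1* KO libraries. *Nrxn3*, which encodes a presynaptic neurexin, lay at 0.06 with 2226 and 2350 in control and 4188 and 4206 in *Dnmt1* KO libraries. Only 5 genes lay within 0.1. With 4 libraries this likeness describes little more than a similar fold change and a similar spread.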

How the data were processed

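RNA of tdTomato-positive cells was measured in 2 control and 2 *Dnmt1* KO libraries, grouped by the genotype in the labels. The authors prepared stranded total RNA libraries with removal of rRNA, used Trim Galore for trimming, STAR for alignment (GRCm39), Salmon for gene quantities and DESeq2 1.32.0 in R 4.3.2 for normalization. The signal values that the authors deposited are normalized counts, that is read counts divided by the size factor of their library. Of the values above 0, 100% were whole multiples of the value of 1 read, to within 0.0001, with size factors of 0.915 to 1.12. All 4 per-library columns were used, and no raw counts or strand setting were given in the sources used here.

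For genes averaging 10 or more, limma 3.58.1 (R 4.3.3) was run on log2(normalized count + 1) with genotype as the term and eBayes with a variance trend, and p was adjusted by Benjamini-Hochberg over 14323 genes. The alternatives were pseudocounts of 0.5 and 10, minimum means of 1 and 50, TMM factors, quantile normalization, no variance trend, edgeR 4.0.16, DESeq2 1.42.0 and limma-voom on the recovered reads, removal of length and GC trends (spline of 5 degrees of freedom), a replicate block, and each library left out. The remaining library was then assumed to vary like the others. The fits were also run on simulated counts, and the outcome is not given here. Gene positions came from the GENCODE annotation of GRCm39, with 38 tested genes unmatched, and start regions from RefSeq (GRCm38.p6). Python 3.11.15, numpy 2.4.6, scipy 1.17.1, pandas 2.3.3 and matplotlib 3.10.9 were used.

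The 7 genes and all lists were chosen with earlier results of these data known. Named are the 7 genes, the members of the GABA and glycine lists that were called, the most abundant member of each list that was not, the 2 genes nearest to a called subunit gene, *Dnmt1* and *Sst*. Other subunit genes, *Lhx6*, *Lhx8*, *Chat*, *Slc12a2* and *Slc12a5* were named after their values were seen. Some listed genes and sequences are left out here, and lists are counted without them. Each standard deviation rests on 2 libraries.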

Additional observations from a re-analysis of the deposited data

How the results depend on the processing

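Of the 7 subunit genes, *Gabra2*, *Gabra3*, *Gabra5*, *Gabrb2* and *Gabrg3* kept their direction in every setting run, and *Gabra2* was called in all of 17 but that without a variance trend (log2 fold change 0.89, adjusted p = 0.0616). That setting called 0 of the 7 and 0 of 14323 genes, and DESeq2 called 1327 genes in place of 2476. The number of genes called was 1525 to 2205 with 1 library left out (1648 without control library 1), and the number of the 7 called stayed at 1. *Gabra4* turned from -0.12 to between -0.73 and 0.49 over the fits without a library, and *Gabrb1* from -0.02 to between -0.25 and 0.20, with 0.0927 under quantile normalization. *Rdx* turned to 0.0313 with the length and GC trend removed, with or without the replicate block, and ranged from -0.0546 to 0.00093 with a library left out, and *Dnmt1* turned to 0.0182 with that trend removed, again with or without the block. The cause of these turns was not tested.

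Replicate numbers were shared between genotypes by name only. The deviations of the libraries numbered 1 correlated at 0.0157 over 8418 genes. With the replicate block 2957 genes were called and *Gabra2* remained the one subunit gene called (adjusted p = 8.84e-06). With the block and the length and GC trend removed *Gabrb2* (0.41, adjusted p = 0.0370) was called too, which made 2 of the 7. The trend was removed at a length of 1539 bp for *Gabrb2*, whose longest transcript has 7783 bp. The dependence of this call on the transcript taken was not tested.

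Levels per length moved with the transcript used. The share of *Gabra2* in the 4 alpha genes was 16.1% in control and 24.4% in *Dnmt1* KO libraries with the longest coding sequence, 22.1% and 32.9% with the median length and 23.8% and 34.4% without length. The share of *Gabrb2* in the 2 beta genes was 96.2% and 97.0%, 83.5% and 86.4% with the longest transcript, 56.0% and 61.5% with the median length and 74.1% and 78.2% without length. The alpha sum was 1.23-fold over control with the longest coding sequence, 1.25-fold with the longest transcript or the median length and 1.28-fold without length. The beta sum was 1.22-fold with the longest coding sequence, 1.19-fold with the longest transcript, 1.12-fold with the median length and 1.17-fold without length. Its SD was 0.138 to 0.193 over these lengths. A mean of at least 50 left *Gabra4* and *Gabrg3* untested. Counts of 13 to 57 reads limited *Gabra4* and *Gabrg3*, and 3 to 19 reads *Gabre*.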
